A study of Arabidopsis thaliana with 8 samples.

Results

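The expansins and the xyloglucan endotransglucosylase/hydrolases (XTHs) were examined in RNA-seq of Arabidopsis hypocotyls, the organ that joins the shoot and the root. The set was given as a list of 41 loci, of which 15 encode alpha-expansins (EXPA), 2 beta-expansins (EXPB), 4 expansin-like proteins (EXLA and EXLB), 14 XTHs of group I/II and 6 XTHs of group III. All 41 loci were found among the 37573 rows of the count table. All libraries came from 1 transgenic line, *SMXL7pro:SMXL7d53-GR*, whose labels give the genotype as WT. This line expresses, under the *SMXL7* promoter, a form of SMXL7 that strigolactone (SL) signalling cannot remove, fused to the glucocorticoid receptor (GR), so that its activity depends on dexamethasone (DEX). Plants were grown for 3 weeks in short days and then in long days, and at 4 weeks of age they received 15 µM DEX, or DMSO alone as mock, in the water. The hypocotyls were collected after 5 h, and 4 libraries were made for DEX and 4 for mock.

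The mock plants carried the transgene too, and plants without it were not analysed here. Effects of the activated fusion and of DEX itself therefore cannot be told apart. The study's methods state for all its measurements that distinct samples were used, but neither they nor the labels say whether these replicates came from separate plants or pools, so that p-values measure the spread between these libraries. The total counts per library were between 47976811 and 63996960 for DEX and between 49220724 and 85953231 for mock.

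Growing plant cells enlarge when their wall yields to turgor. Expansins loosen the contacts between wall polymers without cutting them and work best at acid pH, which plasma membrane proton pumps provide. XTHs cut xyloglucan, the main hemicellulose of the primary wall in Arabidopsis, and most of them rejoin the cut end to another xyloglucan chain, whereas some of group III can hydrolyse it. The expansin-like proteins share the fold of expansins, but no wall-loosening activity is known for them. In hypocotyls that thicken, such wall changes go with the expansion of the cells that the vascular cambium forms. *SMXL7* encodes a repressor of SL responses.

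The raw counts of DEX and mock libraries were compared with the quasi-likelihood method of edgeR, and p-values were adjusted after Benjamini and Hochberg over all 21289 genes tested. Genes were called induced or suppressed at an adjusted p under 0.01, a change of more than 1.5-fold (0.585 on the log2 scale) and a mean normalised count over 50. Of the 41 genes, 38 had enough counts for the test, and 37 of these had a mean over 50. DEX induced 9 of the 38 tested genes (23.7%) and suppressed 2 (5.26%), which together are 28.9%. Over all tested genes, 987 were induced (4.64%) and 386 were suppressed (1.81%), which together are 6.45%. The induced genes were *XTH17*, *XTH18*, *XTH19*, *TCH4* (*XTH22*), *XTH23*, *EXLA1*, *EXLA2*, *EXLA3* and *EXPA8*, with changes between 1.8-fold and 8.80-fold. The suppressed genes were *EXPA9* and *XTH15*. No EXPB and no group III XTH was called.

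The 250 bases before the annotated gene start are shown for the 5 genes with the largest increases, in the order of their change. They were read from the TAIR10.1 assembly on the strand of the gene, 5′ to 3′, and end at the base before the start. Capitals mark every match, on either strand, to the 8 motifs searched.

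XTH18 (chr4:14827212-14827461, - strand): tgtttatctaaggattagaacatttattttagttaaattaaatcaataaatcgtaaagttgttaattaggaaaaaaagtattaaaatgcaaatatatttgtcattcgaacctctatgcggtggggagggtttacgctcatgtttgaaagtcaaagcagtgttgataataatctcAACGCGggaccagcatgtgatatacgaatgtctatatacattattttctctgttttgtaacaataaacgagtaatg
TCH4 (chr5:23308681-23308930, - strand): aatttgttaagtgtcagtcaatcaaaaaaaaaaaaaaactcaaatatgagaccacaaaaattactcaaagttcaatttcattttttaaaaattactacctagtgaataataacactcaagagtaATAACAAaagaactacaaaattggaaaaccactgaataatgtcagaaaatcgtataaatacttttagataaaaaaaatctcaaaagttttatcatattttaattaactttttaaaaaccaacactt
XTH23 (chr4:13128144-13128393, + strand): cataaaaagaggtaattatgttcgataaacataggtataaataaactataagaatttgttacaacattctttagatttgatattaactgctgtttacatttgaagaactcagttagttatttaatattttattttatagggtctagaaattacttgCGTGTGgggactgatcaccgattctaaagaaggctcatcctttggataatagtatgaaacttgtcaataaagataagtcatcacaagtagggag
EXLA3 (chr3:16892452-16892701, + strand): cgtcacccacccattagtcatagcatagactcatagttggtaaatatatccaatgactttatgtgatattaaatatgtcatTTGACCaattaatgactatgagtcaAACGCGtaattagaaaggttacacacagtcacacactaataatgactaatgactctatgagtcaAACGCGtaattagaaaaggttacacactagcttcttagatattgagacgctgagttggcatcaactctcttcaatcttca
EXLA1 (chr3:16895916-16896165, + strand): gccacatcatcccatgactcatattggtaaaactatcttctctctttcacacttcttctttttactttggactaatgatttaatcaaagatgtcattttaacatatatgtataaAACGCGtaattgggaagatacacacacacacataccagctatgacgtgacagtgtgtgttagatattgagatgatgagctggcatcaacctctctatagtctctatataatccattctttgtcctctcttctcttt

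The motifs were TGTCTC (an auxin response element), CGTGTG (a brassinosteroid response element) and its variant CGTGCG, then CACGTG (the G-box), ACGTGT (of the abscisic acid response element), CGCGTT (the rapid stress response element), TTGACC (a W-box) and ATAACAA, a motif known for SMXL6. The G-box, the abscisic acid motif and the first brassinosteroid motif can overlap each other. In these 5 windows, CGCGTT was found in *XTH18*, in *EXLA1* and at 2 places in *EXLA3*, each time on the opposite strand. The first base of the match lay 76 bases before the start of *XTH18* and 136 before that of *EXLA1*, and in *EXLA3* the matches lay 144 and 80 bases before the start. Both *EXLA3* copies lay within a repeat of 26 identical bases, ctatgagtcaAACGCGtaattagaaa (the first copy at chr3:16892548-16892573, + strand). *TCH4* held ATAACAA 126 bases, *XTH23* held CGTGTG 94 bases, and *EXLA3* held TTGACC 169 bases before the start.

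Among the windows of all 27443 protein-coding genes, 2.59% held CGCGTT, against 5 of the 41 members (*EXPA6*, *EXLA1*, *EXLA3*, *XTH18* and *XTH20*). The CGTGTG motif was in 7 members and in 5.37% of all windows. TTGACC was in 7 members and 12.2% of all windows, TGTCTC in 3 and 10.9%, ACGTGT in 3 and 10.5%, ATAACAA in 3 and 11.6%, CGTGCG in 1 and 1.57%, and CACGTG in 0 and 6.49%. Of the 5 members with CGCGTT, 3 were induced, among them the neighbours *EXLA1* and *EXLA3*, while *EXPA6* and *XTH20* were not called. Of all 38 tested members, 9 were induced (23.7%), as were 4.64% of all tested genes. Whether genes with CGCGTT were induced more often was not tested. *XTH17* and *XTH19* held none of the 8 motifs although both were induced. These matches describe the letters of the windows only.

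The 5 induced XTHs all belong to group I/II, whose members act as endotransglucosylases, and they differed widely in level. *XTH18* (AT4G30280) had 3976, 4144, 6394 and 4408 normalised counts in DEX libraries, against 465, 455, 623 and 605 in mock libraries. The 8.80-fold increase (log2 fold change 3.14 ± 0.20 SE, edgeR adjusted p = 2.12e-05) was the largest of the 38 genes and the 27th largest of all 21289 tested genes. Every DEX library was above every mock library by a wide margin. *TCH4* (AT5G57560), named for its induction by touch, had 23445, 26303, 31928 and 26882 normalised counts in DEX libraries, against 5293, 5637, 7028 and 7690 in mock libraries. Its log2 fold change was 2.08 ± 0.14, with an edgeR adjusted p of 1.22e-05. No other tested member gained as many normalised counts as *TCH4*, whose mean was 27139 ± 3528 in DEX and 6412 ± 1135 in mock libraries (SD, n = 4 each).

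*XTH23* (AT4G25810), the closest relative of *TCH4* in the set, had 2902, 3532, 5942 and 3659 normalised counts in DEX libraries, against 924, 954, 1027 and 1136 in mock libraries. The treatments did not overlap, but DEX replicate 3 stood above the other DEX libraries. The log2 fold change was 1.99 ± 0.23 (edgeR adjusted p = 7.1e-04). *XTH19* (AT4G30290) had 452, 493, 667 and 494 normalised counts in DEX libraries, against 162, 135, 203 and 162 in mock libraries, and a log2 fold change of 1.66 ± 0.14 (edgeR adjusted p = 7e-06). *XTH17* (AT1G65310) had far fewer counts, with 110, 81.9, 110 and 86.0 in DEX libraries, against 45.6, 40.1, 44.3 and 47.0 in mock libraries. It still rose without overlap, by 1.12 ± 0.15 on the log2 scale (edgeR adjusted p = 1.09e-04).

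Reads that could be placed at more than 1 site had been dropped, which bears on near-identical copies. The exons of *XTH17* matched those of *XTH18* at 90.7% of 1225 bases, and those of *XTH19* matched *XTH18* at 85.2% of 1123 bases. The split of reads between *XTH17* and *XTH18* is therefore less certain than their joint increase. *TCH4* and *XTH23* were 80.8% identical over 845 bases.

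**Figure D1:**
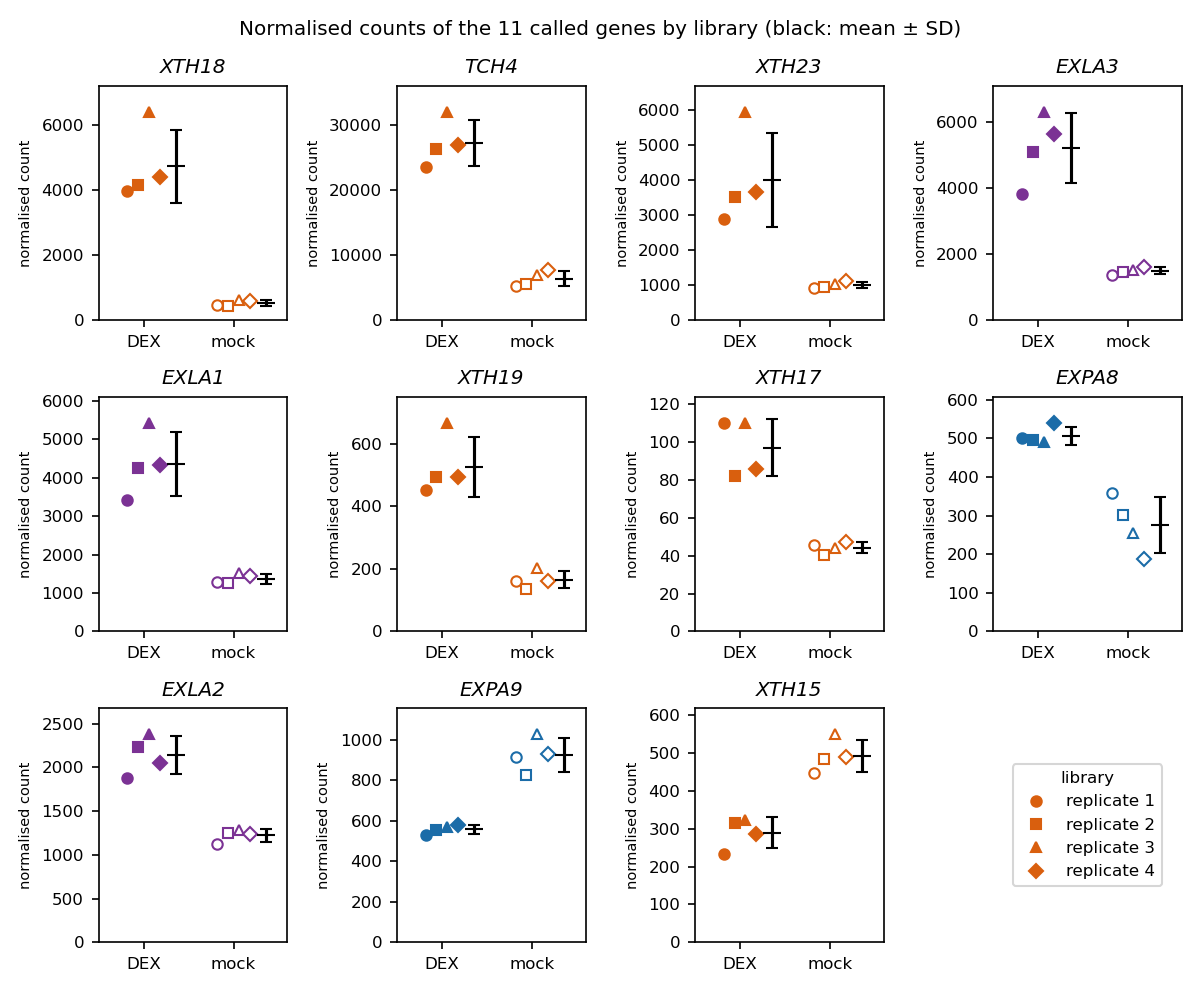
Normalised counts of the 11 called genes in each library, with DEX on the left and mock on the right of each panel, axes starting at 0, 1 symbol per replicate number, and the mean ± SD (n = 4) in black. In all 11 panels the DEX libraries and the mock libraries do not overlap, with *EXPA9* and *XTH15* lower in DEX and the other 9 genes higher.

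Within the expansin family, the expansin-like genes showed the clearest change, with 3 of 4 induced, against 4.64% of all tested genes. *EXLA3* (AT3G45960) had 3812, 5079, 6301 and 5626 normalised counts in DEX libraries, against 1380, 1449, 1532 and 1625 in mock libraries, a log2 fold change of 1.80 ± 0.15 (edgeR adjusted p = 5.3e-05). *EXLA1* (AT3G45970) had 3413, 4255, 5420 and 4339 in DEX libraries, against 1281, 1250, 1516 and 1454 in mock libraries. With 1.66 ± 0.14 on the log2 scale (edgeR adjusted p = 4.57e-05), its increase was close to that of *EXLA3*. *EXLA2* (AT4G38400) rose less, by 0.81 ± 0.07 on the log2 scale (edgeR adjusted p = 4.22e-06). It had 1883, 2236, 2381 and 2050 normalised counts in DEX libraries, against 1122, 1248, 1284 and 1235 in mock libraries, again without overlap. *EXLB1*, the member of the other expansin-like branch, averaged 212 ± 12.5 normalised counts in DEX and 247 ± 18.4 in mock libraries and did not pass the test (log2 fold change -0.22, edgeR adjusted p = 0.076). *EXLA1* and *EXLA3* matched at 88.3% over 196 bases at best, and at 81.6% over a longer stretch of 779 bases. The longest match of *EXLA1* was to *EXLA2*, at 84.2% over 822 bases.

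Most alpha-expansins, the proteins in which wall loosening by expansins was first described, changed little. Of 13 tested, 1 was induced and 1 suppressed, against 4.64% and 1.81% of all tested genes. *EXPA8* (AT2G40610) was the induced one, with 500, 495, 491 and 540 normalised counts in DEX libraries, against 359, 302, 254 and 188 in mock libraries. The mock libraries varied more than the DEX libraries, and the log2 fold change was 0.86 ± 0.15 (edgeR adjusted p = 0.00191). *EXPA9* (AT5G02260) was the only suppressed one, with 528, 553, 569 and 581 normalised counts in DEX libraries, against 915, 825, 1029 and 929 in mock libraries. It fell by 0.73 ± 0.07 on the log2 scale (edgeR adjusted p = 5.38e-06).

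*XTH15* (AT4G14130) was the only suppressed XTH, with 232, 314, 323 and 286 normalised counts in DEX libraries, against 446, 483, 549 and 488 in mock libraries. It fell by 0.76 ± 0.10 on the log2 scale (edgeR adjusted p = 1.06e-04). Of its exon bases, 31.6% overlap the gene AT4G14120, and reads there could not be given to either gene. Its close relative *XTH16*, 80.4% identical over 913 bases, was also lower in DEX libraries but by less than 1.5-fold.

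**Figure D2:**
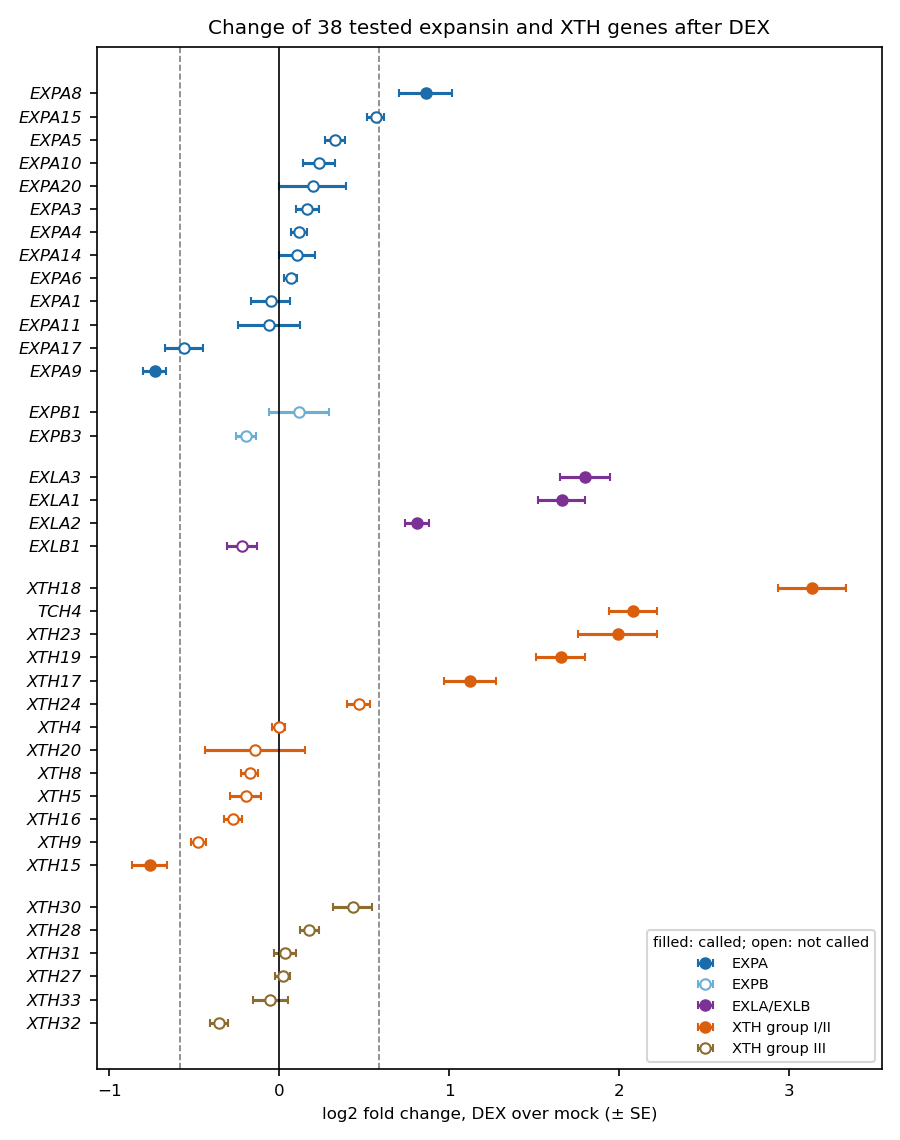
Log2 fold change of DEX over mock with its SE for the 38 tested genes, ordered by family and then by change, where filled points are called genes, open points are genes not called, and dashed lines mark a 1.5-fold change. The 9 induced genes lie to the right of the upper line, *EXPA9* and *XTH15* lie to the left of the lower one, and the other 27 genes lie between -0.56 and 0.57.

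A further 7 genes passed the adjusted p but changed by less than 1.5-fold. *EXPA15* came closest, with 10986, 10444, 10845 and 10832 normalised counts in DEX libraries, against 7600, 6913, 6733 and 7858 in mock libraries (log2 fold change 0.57 ± 0.05, edgeR adjusted p = 4.56e-06). Left out in turn, mock replicates 1 and 4 each took *EXPA15* past the fold threshold, with 0.59 and 0.61. *XTH24*, the neighbour of *XTH18*, had 3418, 3501, 4364 and 3645 normalised counts in DEX libraries, against 2788, 2674, 2750 and 2585 in mock libraries (0.47 ± 0.07, edgeR adjusted p = 3.43e-04). *EXPA5* had 2324, 2572, 2285 and 2299 in DEX libraries, against 1817, 2102, 1915 and 1730 in mock libraries (0.33 ± 0.06, edgeR adjusted p = 0.00124). These 3 genes were higher in every DEX library than in any mock library.

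The other 4 were lower. *EXPA17*, known from the emergence of lateral roots, had 513, 503, 429 and 427 normalised counts in DEX libraries, against 576, 674, 682 and 847 in mock libraries (-0.56 ± 0.11, edgeR adjusted p = 0.00269). It was called suppressed without DEX replicate 1 (-0.60), DEX replicate 2 (-0.60) or mock replicate 1 (-0.64), and also without TMM normalisation (-0.61). *XTH9* of group I/II had 21697, 22991, 20509 and 21055 normalised counts in DEX libraries, against 30402, 29999, 29099 and 30533 in mock libraries (-0.48 ± 0.04, edgeR adjusted p = 6.04e-06). It thus lost more normalised counts than any other member although it missed the fold threshold. *XTH32* of group III had 4803, 5097, 4615 and 4497 in DEX libraries, against 5627, 5930, 6478 and 6270 in mock libraries (-0.35 ± 0.05, edgeR adjusted p = 2.68e-04). *XTH16* had 4572, 4259, 4079 and 3898 in DEX libraries, against 4710, 5363, 4971 and 5274 in mock libraries (-0.27 ± 0.06, edgeR adjusted p = 0.00248). None of these 4 genes overlapped between the treatments.

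By the adjusted p alone, 12 of the 38 genes (31.6%) were higher and 6 (15.8%) were lower in DEX libraries, against 10.9% and 8.69% of all tested genes. All DEX libraries were above all mock libraries for 14 genes (36.8%, against 16.2% of all tested genes) and below them for 8 (21.1%, against 15.1%), while 16 overlapped. A more than 2-fold induction was seen for 7 of the 38 genes (18.4%) and for 2.52% of all tested genes. The shares of lower genes thus lay nearer to those of all genes than the shares of higher genes did. The median log2 fold change was 0.11 over the 38 genes and -0.01 over all tested genes, so that the typical member changed little.

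The families differed in where the changes lay. The median log2 fold change was 1.24 over the 4 expansin-like genes, 0.11 over 13 EXPA genes, -0.04 over both EXPB genes, -0.00 over 13 XTHs of group I/II and 0.03 over 6 XTHs of group III. Group I/II held the largest increase of the set. Of its 13 tested genes, 5 were induced, 1 was suppressed and 7 were not called. Over all tested genes, 4.64% were induced and 1.81% suppressed. The decreases of *XTH15* (-0.76 ± 0.10) and *EXPA9* (-0.73 ± 0.07) did not differ beyond their SE. Without DEX replicate 1 their order was reversed (-0.67 for *XTH15* and -0.71 for *EXPA9*). Summed over the family, the expansin-like genes had 11910 ± 2048 normalised counts in DEX and 4341 ± 277 in mock libraries (SD, n = 4 each). Group I/II summed to 91061 ± 6294 in DEX and 71791 ± 1541 in mock libraries, of which *TCH4* alone held 27139 and 6412. Group III summed to 22011 ± 397 in DEX and 22219 ± 1080 in mock libraries, which was within the spread of the libraries. All 41 genes together took 0.403% of the counts in DEX and 0.370% in mock libraries.

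The abundant members were mostly not those that rose. Levels are compared between genes as RPKM, computed from the counts and the RefSeq exons. RPKM are reads per kilobase of exon, scaled to the total of the tested genes in the library times its TMM factor. *EXPB3*, a beta-expansin, had the highest level in mock libraries, with 332.7 ± 22.2 RPKM in DEX and 381 ± 24.3 RPKM in mock libraries. Its normalised counts were 38221, 44646, 43551 and 42034 in DEX libraries, against 43820, 48928, 49430 and 50895 in mock libraries, overlapping slightly (log2 fold change -0.20 ± 0.06, edgeR adjusted p = 0.0241). *XTH9* came next among the 41 genes, with 233 ± 11.6 RPKM in DEX and 324.5 ± 7.0 RPKM in mock libraries. The neighbouring levels of *XTH9* and *EXPA4* did not differ in mock libraries beyond their spread.

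*EXPA4*, the most abundant alpha-expansin, had 347 ± 12.0 RPKM in DEX and 321 ± 16.6 RPKM in mock libraries. Its normalised counts were 30852, 30483, 32163 and 32805 in DEX libraries, against 30718, 27103, 29542 and 29367 in mock libraries, which overlapped (log2 fold change 0.11 ± 0.05, edgeR adjusted p = 0.09). *XTH4*, which like *XTH9* is known from secondary growth, had 211 RPKM in both DEX and mock libraries, with a log2 fold change of -0.00 (95% interval -0.09 to 0.08). *XTH31*, the most abundant group III gene in mock libraries and one with known hydrolase activity, had 73.1 ± 3.70 RPKM in DEX and 71.4 ± 7.15 RPKM in mock libraries. Its normalised counts were 5907, 6606, 5988 and 6181 in DEX libraries, against 5928, 5319, 6790 and 6062 in mock libraries (log2 fold change 0.03, edgeR adjusted p = 0.738). The level of *XTH28*, 75.4 ± 4.31 RPKM in DEX and 66.6 ± 4.52 RPKM in mock libraries, was not separated from it by more than this spread.

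*TCH4* was 11th among the 41 genes in mock libraries, with 66.6 ± 11.8 RPKM, and had 282 ± 36.6 RPKM in DEX libraries, where only *EXPB3* and *EXPA4* had higher means. *XTH18* had 61.8 ± 14.7 RPKM in DEX and 7.02 ± 1.17 RPKM in mock libraries. *EXLA1*, with the highest mean RPKM of the expansin-like genes, had 67.5 ± 12.8 RPKM in DEX and 21.3 ± 2.01 RPKM in mock libraries. *EXLA3* was close to it, with 62.8 ± 12.7 RPKM in DEX and 18.05 ± 1.28 RPKM in mock libraries. At the low end, *XTH17* had 1.29 ± 0.20 RPKM in DEX and 0.59 ± 0.04 RPKM in mock libraries. In mock libraries, the induced genes thus lay between the lowest level of the 38 tested genes and the 11th highest of the set.

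**Figure D3:**
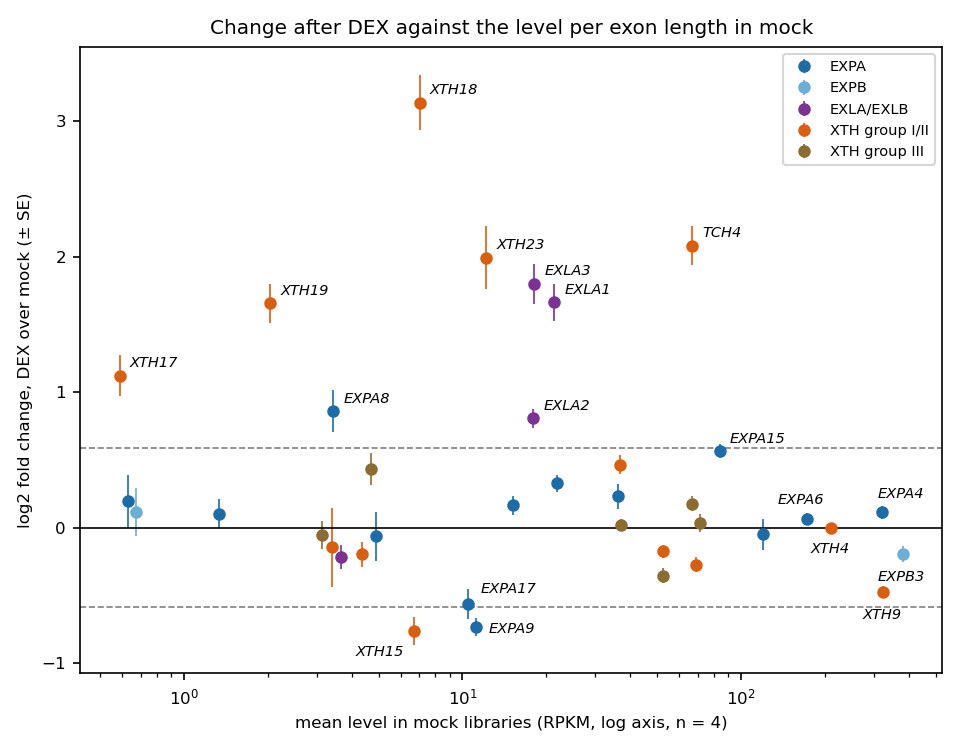
Log2 fold change of DEX over mock (± SE) against the mean level in mock libraries in RPKM on a log axis (n = 4) for the 38 tested genes, coloured by family, with dashed lines at a 1.5-fold change. The 4 most abundant genes in mock libraries, *EXPB3*, *XTH9*, *EXPA4* and *XTH4*, lie between -0.48 and 0.11, and the 9 induced genes lie at or below the level of *TCH4*.

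The other members gave no call. *EXPA1*, *EXPA3*, *EXPA6*, *EXPA10*, *EXPA11*, *EXPA14*, *EXPA20* and *EXPB1* had log2 fold changes between -0.06 and 0.23, each with an edgeR adjusted p of at least 0.0833. For *EXPA20*, 86.3% of the exon bases overlap the gene AT4G38215, and its mean count was under 50, so that its value is uncertain. *XTH5*, *XTH8* and *XTH20* of group I/II lay between -0.20 and -0.14, and *XTH27*, *XTH28*, *XTH30* and *XTH33* of group III lay between -0.05 and 0.43. *XTH30* had the largest change of these (0.43 ± 0.12, edgeR adjusted p = 0.0155). *EXPA2*, *EXPA16* and *XTH25* had at most 23 raw counts in any library and were not tested.

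Several induced genes lie beside another family member, and the changes of neighbours were compared. On chromosome 4, *XTH24*, *XTH18* and *XTH19* follow each other on the - strand, with gaps of 5161 and 1500 bases and no other protein-coding gene between them. Their log2 fold changes were 0.47, 3.14 and 1.66. On chromosome 5, *TCH4* lies 565 bases from *XTH25*, which is followed by *XTH13* and *XTH12*, and only *TCH4* had enough counts for the test. *XTH23* lies 363 bases from *XTH14* on chromosome 4, where again only *XTH23* could be tested. *EXLA3* and *EXLA1* lie 2012 bases apart on the + strand of chromosome 3, with 1.80 and 1.66. *XTH24* was the only tested neighbour that was not called, although it was higher in every DEX library than in any mock library. Genes with too few counts cannot show whether they were induced.

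**Figure D4:**
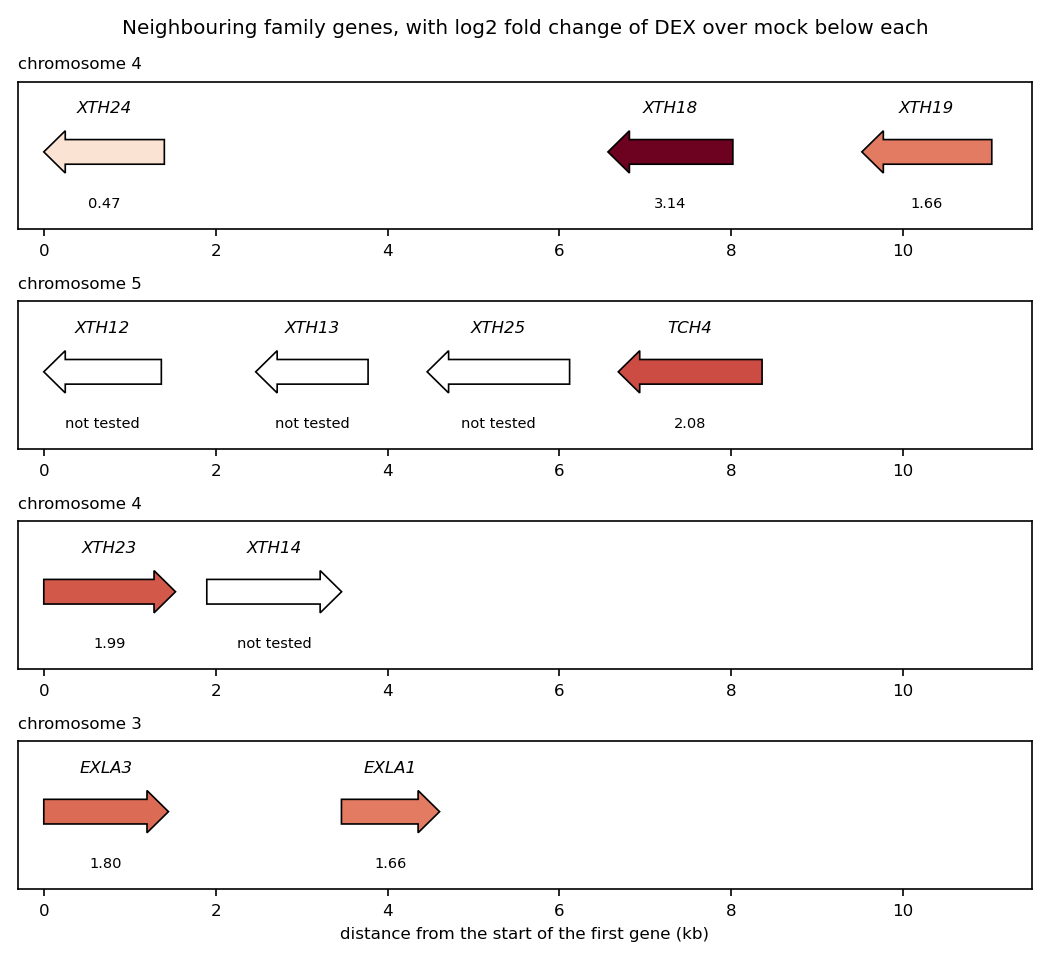
Maps of the 4 places where an induced gene lies beside another expansin or XTH gene, drawn to scale in kb from the start of the first gene, with arrows pointing along the strand and the log2 fold change of DEX over mock below each gene (darker red is higher, white is not tested). *XTH18* and *XTH19*, and *EXLA3* and *EXLA1*, are neighbours that were both induced, whereas *XTH12*, *XTH13*, *XTH14* and *XTH25* had too few counts to test.

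The induced genes varied together over the DEX libraries. DEX replicate 3 was the highest DEX library for 8 of the 9 genes, all but *EXPA8*, and DEX replicate 1 was the lowest for 7, all but *EXPA8* and *XTH17*. Relative to the mock mean on the log2 scale, *XTH18* stood at 2.89 in DEX replicate 1 and at 3.57 in DEX replicate 3. *XTH23* stood at 1.52 in DEX replicate 1 and at 2.56 in DEX replicate 3. Over all 987 induced genes, replicate 3 was the highest DEX library for 576 (58.4%) and replicate 1 the lowest for 564 (57.1%), so that this order was not particular to expansins and XTHs. Without DEX replicate 3, all 9 genes were still called induced.

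**Figure D5:**
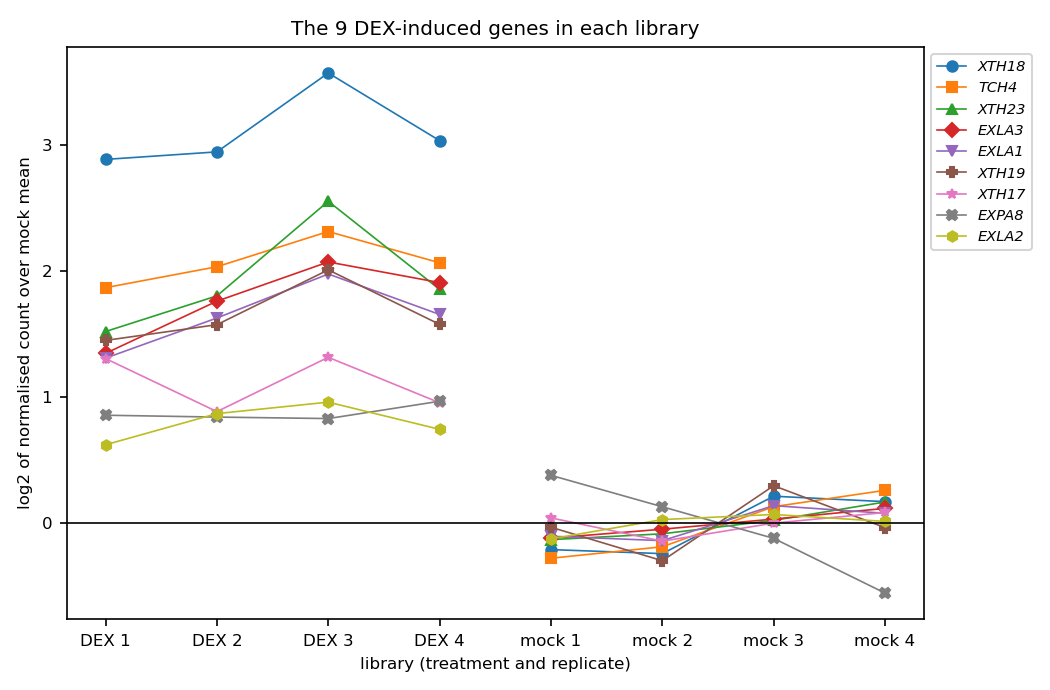
Log2 of the normalised count over the mean of the mock libraries for the 9 induced genes in each of the 8 libraries, DEX on the left and mock on the right, with lines that only join the values of 1 gene within a treatment. DEX replicate 3 is the highest DEX library for all genes but *EXPA8*, and all DEX values lie above all mock values of the same gene.

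Other markers moved with the treatment and are given for that reason. Of 12 genes listed as markers of leaves, stomata and the shoot apex, 10 were tested. Of these, 6 were suppressed, against 1.81% of all tested genes, with *TMM* (-1.68) and *SPCH* (-1.41) of the stomatal lineage changing most. *STM*, listed as a shoot apex gene, went the other way, with 11198 ± 169 normalised counts in DEX and 7780 ± 411 in mock libraries. It did not overlap but stayed below the fold threshold (0.53 ± 0.04, edgeR adjusted p = 2.09e-06). In mock libraries *STM* had 75.3 ± 3.98 RPKM, above the hypocotyl marker *PXY* with 49.3 ± 2.74 RPKM. Whether *STM* marks the apex in this organ was not tested. The 12 genes summed to between 89976 and 104265 normalised counts in DEX and between 113045 and 149374 in mock libraries, and none was at 0 in all libraries. Most of this sum came from the photosynthesis genes *RBCS1A* (means of 51592 in DEX and 70697 in mock libraries), *CAB3* (12852 and 25054) and *LHCB2.1* (13340 and 16502). The part of the 12 listed genes in the changes of expansins and XTHs was not tested. Of 12 markers of hypocotyl vascular tissue and periderm, all were tested. Only *ATHB8*, a HD ZIP-III gene of the cambium, was called (0.78, induced), against 6.45% of all tested genes. The sums of these 12 markers lay between 65417 and 68234 in DEX and between 57705 and 62651 in mock libraries. All 7 markers of the root epidermis, among them the root hair expansins *EXPA7* and *EXPA18*, had at most 20 raw counts in any library. In whole hypocotyls, fewer cells of a type and less RNA per cell cannot be told apart. *SMXL7* itself, whose reads join the transgene and the endogenous gene, fell by 0.44 ± 0.05 on the log2 scale (edgeR adjusted p = 1.52e-05).

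The remaining expansin and XTH genes of the genome were mostly silent. Of 28 such genes, 6 were tested and none was called, against 6.45% of all tested genes. Of the rest, 8 had 0 counts in all libraries, and the other untested genes had at most 15 raw counts in any library. The tested ones were *EXPA13*, *EXPB2*, *XTH6*, *XTH7*, *XTH10* and *XTH11*. *XTH7* was abundant, with 305.6 ± 24.55 RPKM in DEX and 345.4 ± 24.49 RPKM in mock libraries. This level lay among those of the most abundant of the 41 genes. *XTH6* passed the adjusted p without reaching the fold threshold (-0.51 ± 0.11, edgeR adjusted p = 0.00724).

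Genes that make or trim the substrate of XTHs were examined next. Of 14 genes for xyloglucan synthesis and trimming, all were tested, with a median log2 fold change of 0.01. Of these, 2 were induced and 0 suppressed, against 4.64% and 1.81% of all tested genes. *XXT1*, a xylosyltransferase that adds the side chains of xyloglucan, had 7325, 8081, 8691 and 8306 normalised counts in DEX libraries, against 3009, 3008, 3377 and 3574 in mock libraries (1.32 ± 0.07, edgeR adjusted p = 7.37e-08). *CSLC4*, which makes its glucan backbone, had 4390, 4762, 5930 and 4785 in DEX libraries, against 2017, 2664, 2274 and 2326 in mock libraries (1.10 ± 0.11, edgeR adjusted p = 6.43e-05). Neither gene overlapped between the treatments. *XXT5* (0.39) and *FUT1* (-0.25), a fucosyltransferase, passed the adjusted p below the fold threshold.

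None of the 9 tested genes for cellulose of the primary wall was called, against 6.45% of all tested genes. *CESA5* (0.30) and *CESA6* (0.18), subunits of cellulose synthase, were higher by the adjusted p, as were 10.9% of all tested genes. Of 11 plasma membrane proton pumps, 10 were tested and only *AHA9* was called, against 6.45% of all tested genes. *AHA9* had 70.9 ± 14.6 normalised counts in DEX and 29.9 ± 5.82 in mock libraries (1.23 ± 0.19, edgeR adjusted p = 3.84e-04). Its mean over all libraries lay close to the minimum of 50. Of the 10 tested pumps, 8 had a log2 fold change below 0, as did 10967 of all 21289 tested genes. Some of these pumps lay near 0, such as *AHA7* (-0.06) and *AHA10* (-0.03). *AHA1* and *AHA11* passed the adjusted p without reaching the fold threshold. By the adjusted p alone, 8.69% of all tested genes were lower. *AHA11* had 4066 ± 72.7 normalised counts in DEX and 5364 ± 224 in mock libraries, without overlap (-0.40 ± 0.04, edgeR adjusted p = 1.03e-05). The pump gene with the most counts, *AHA1*, had 45346 ± 945 normalised counts in DEX and 51121 ± 1112 in mock libraries (-0.17 ± 0.04, edgeR adjusted p = 0.00545). Besides *TCH4*, the touch-inducible genes *TCH2* (*CML24*) and *TCH3* (*CML12*), both for calmodulin-like proteins, were induced, against 4.64% of all tested genes. Their log2 fold changes were 1.09 ± 0.08 and 1.21 ± 0.10 (edgeR adjusted p = 1.22e-06 and 1.57e-05). *TCH1*, taken here as the calmodulin gene *CAM1* (AT5G37780), had a value of 0.03.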

How the data were processed

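RNA-seq libraries of polyadenylated RNA from hypocotyls were analysed, 4 for DEX and 4 for mock, grouped by the sample labels. Per the labels and the study's methods, the authors mapped reads with STAR 2.7.8a to TAIR10, discarded reads with several places, and counted the rest per gene with summarizeOverlaps in union mode, ignoring strand. The deposited raw counts, without normalisation, were used for all tests. A second deposited table holds signal values, counts that the authors divided by DESeq2 (1.34.0) size factors. It served only as a check of the size factors, which were the same here. All 8 columns of each table were assigned, and 0 were left out.

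Counts were normalised by TMM and tested by edgeR 4.0.16 (glmQLFit with robust estimates, glmQLFTest) with limma 3.58.1 in R 4.3.3, without a replicate block, on genes kept by filterByExpr. Normalised counts were scaled to the mean effective library size. The SE was taken as the size of the log2 fold change over the square root of the F statistic. Thresholds (adjusted p 0.01, log2 fold change 0.585, mean count 50) follow the study's methods. With totals of at least 47976811 counts and a biological coefficient of variation of 0.0662, precision was set by the number of libraries, and by depth only at low counts. No pair of libraries of 1 treatment agreed within sampling noise (chi-square per gene 6.25 to 25.2).

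Exons, gene starts, gene symbols and sequences came from RefSeq for TAIR10.1, matched by locus for all 41 genes. The files carry no coordinates. Exon matches were searched with blastn 2.17.0, keeping matches of at least 75 bases, and tables were joined with pandas 2.3.3 in Python 3.11.15. The members, gene lists and motifs were chosen with earlier results of these data known. By a rule, values in every library were given for called genes, for the most abundant gene of each family, and for genes past the adjusted p but not the fold threshold. The tests were tested on simulated data. Alternatives were DESeq2 1.42.0, other size factors, total counts only, other filters and thresholds, a test against the fold threshold (glmTreat), a replicate block, libraries thinned to the smallest total, and leaving out each library in turn.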

Additional observations from a re-analysis of the deposited data

Results flagged for a closer look

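A library that stood apart from the other 3 of its treatment was searched for in each treatment of the 38 tested genes, by Dixon's test at its 95% critical value. It was found in 4 of 76 groups of libraries, and chance gives about 1 in 20. *EXPA1* had 13116 normalised counts in mock replicate 1, against 10457 to 10885 in the other mock libraries. *EXPA5* had 2572 in DEX replicate 2, against 2285 to 2324 in the other DEX libraries. *EXPA20* had 59.8 in mock replicate 3, against 36.4 to 39.8 in the other mock libraries. *XTH20* had 453 in DEX replicate 3, against 184 to 218 in the other DEX libraries. Without DEX replicate 3, the log2 fold change of *XTH20* was -0.54 (edgeR adjusted p = 0.00757), against -0.14 (0.753) with all libraries, so that this library decided whether *XTH20* passed the adjusted p. In both cases *XTH20* stayed within the fold threshold and was not called. No reason for these libraries was tested.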

How the results depend on the processing

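Of 17 alternatives, 8 left out 1 library each. The 11 called genes were called under all of them except glmTreat, which tests against the fold threshold and lost *EXPA8*, *EXPA9*, *EXLA2*, *XTH15* and *XTH17*, leaving 6 members induced and 0 suppressed (all genes 531 and 72). Without a fold threshold, 12 members were induced and 6 suppressed (all genes 2204 and 1766). With 1 library left out, 9 to 10 members were induced and 2 to 3 suppressed, as were 901 to 994 and 327 to 426 of all genes.

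Over all tested genes, libraries of the same replicate number hardly deviated together, with correlations between -0.009 and 0.071. Pairing of single genes was not tested. With a replicate block, the edgeR adjusted p fell for *XTH18* (2.12e-05 to 1.69e-09), *TCH4* (1.22e-05 to 7.13e-09) and *EXLA1* (4.57e-05 to 6.83e-08). It also fell for *EXLA2*, *EXLA3* and *XTH19*, but rose for *XTH17*, *EXPA8* and *XTH23* (7.1e-04 to 0.00295). A replicate block gave 9 induced and 2 suppressed members and 983 and 387 genes in all. DESeq2 called 1022 and 409 genes, and total counts only gave 3 suppressed members. Of 532 alternative values of single members, 513 kept their direction and call, 6 gained a call (*EXPA15* and *EXPA17*), and 13 changed sign in genes that were not called. With total counts only, *XTH27* was at -0.0266 and *XTH31* at -0.0115 on the log2 scale. With 1 library left out, *EXPA1* ranged from -0.13 to 0.0435, *EXPA11* from -0.19 to 0.13, *EXPB1* from -0.0441 to 0.21, *XTH4* from -0.0139 to 0.0153, *XTH20* from -0.54 to 0.0066, *XTH27* from -0.0029 to 0.0639 and *XTH31* from -0.0217 to 0.10. The median of all genes moved by less than 0.1 under every scaling. Depth limits only the genes with few counts, such as *EXPA2*, *EXPA16* and *XTH25*.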
